A study of Sebastes schlegelii with 6 samples.

Results

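The genes described here are the kinesins and tubulins of Korean rockfish (Sebastes schlegelii) liver, 75 of the 19303 genes in the deposited count table. They were chosen by name alone: symbols that start with kif and a digit or with tuba, tubb or tubg, and products described as an alpha- or beta-tubulin or a carboxy-terminal kinesin. By role they comprised 13 mitotic kinesins, 17 transport kinesins, 19 other kinesins, 11 alpha-tubulins, 8 beta-tubulins, 1 gamma-tubulin and 6 gamma-tubulin complex components, the last of which fall under the rule through their tubgcp symbols and are not tubulins. Many symbols are shared by several genes, and 8 members carry a product name only, so each gene is given with the number that ends its identifier (S.schlegelii_GLEAN_ followed by that number).

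RNA from whole liver was sequenced after 72 days without food (starved libraries A6, C6 and E6) or with feeding (fed libraries B1, D1 and E1), in a study of starvation in this species. Strain, sex, age and pooling of the fish are not given in the labels. Nor is it stated that each library is 1 fish, so a p-value here covers library spread, which may be technical. Liver identity was clear from the hepatocyte marker list, whose summed level was 172800 to 212400 FPKM (counts scaled by coding length and library total) in starved and 150500 to 220000 FPKM in fed libraries. Library totals ranged from 11623356 counts in B1 to 14716282 counts in E6.

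Microtubules are hollow polymers of alpha- and beta-tubulin pairs that grow from gamma-tubulin complexes. Kinesins are motors that use ATP to move along them or to take them apart. Mitotic kinesins build the spindle, move chromosomes and complete cytokinesis, and their transcripts accumulate in dividing cells. Transport kinesins carry vesicles and organelles in cells that do not divide, and adult hepatocytes, which rarely divide, use them for secretion and endocytosis. In whole liver, fewer cells of a type and less RNA per cell cannot be told apart.

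Library B1 stood apart within the fed group. Its log2 CPM values (counts over the scaled library size, not divided by gene length) correlated across genes with D1 and E1 at Pearson r = 0.891 and 0.877, against 0.951 between D1 and E1, and 41.7% of its uniquely mapped reads were spliced, against 50.7% to 53.3% in the other 5 libraries. On the CPM scale, B1 was the highest of the 6 libraries for all 12 tubulin genes that entered the test, and the lowest for 11 of the 20 tested kinesins outside the mitotic class. The part of the spliced share in these values was not tested. Only some results are also given without B1: Kif5b, tuba, the calls among members and the signs of the transport and other kinesins.

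Transcripts of 7 mitotic kinesins and 3 tubulins were lower in starved liver, while no transport kinesin, other kinesin or gamma-tubulin complex component passed the test in either direction. Of the 75 members, 48 had enough counts to be tested, 10 of these fell and 0 rose (edgeR, adjusted p under 0.05 over 13338 genes). The same test called 2.98% of all tested genes lower and 2.18% higher. The 10 were 7 mitotic kinesins, 1 alpha-tubulin and 2 beta-tubulins. At an unadjusted p under 0.05, 18 of the 48 tested members were lower and 2 higher, against 1644 and 1280 of all 13338 tested genes. DESeq2 called 17 members lower, against 5.93% of the 15132 genes it tested, and 0 higher. Here and below, DESeq2 counts of members and of lists run over all their genes, so the denominators may differ.

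**Figure D1:**
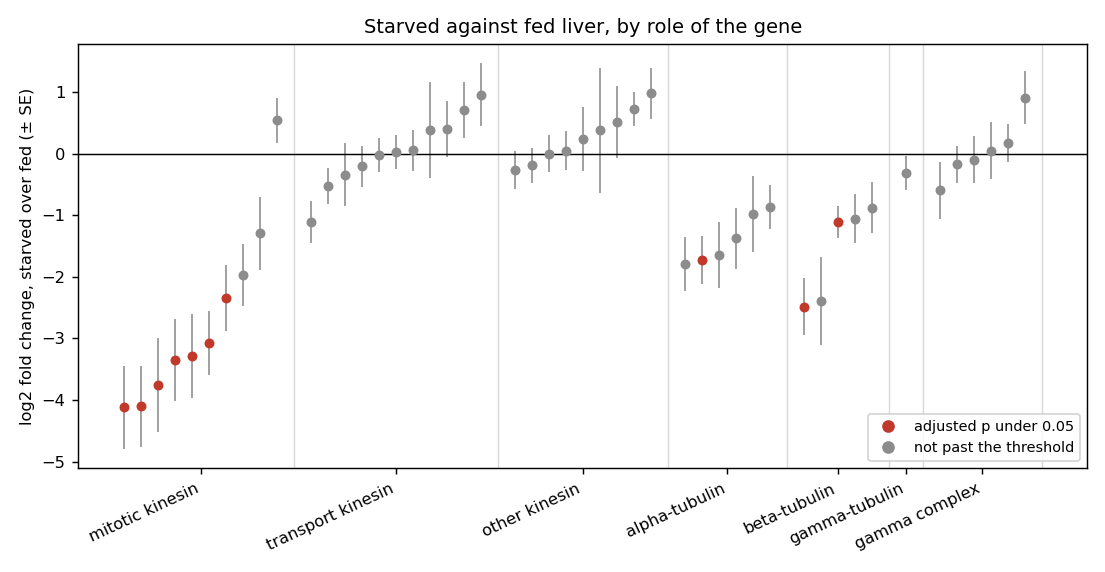
Log2 fold change of starved over fed liver (y axis, with standard error bars) for the 48 tested kinesin and tubulin genes, grouped by role along the x axis; red points passed an adjusted p under 0.05. The mitotic kinesins reach -4.12, all 12 tubulins lie below 0, and the transport and other kinesins lie on both sides of 0.

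The filter on low counts bears on the mitotic class. It required 0.755 CPM in 3 libraries, and the 7 mitotic kinesins that fell reached this in all 3 fed libraries but in at most 2 starved ones, so they entered the test through the group in which they were high. For 5 of the 7 no starved library reached it. That their groups did not overlap therefore came with entry to the test. With no such filter all 75 members were fitted, and 10 were again called lower, against 2.11% of all genes. These 10 held 7 of the 13 mitotic kinesins, with KIF18A in place of Kif20b, and 3 tubulins.

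KIF23 and KIF20A act in the last steps of division, where they bundle the microtubules of the midzone and bring regulators to the cleavage furrow. KIF23 gene 10020531 had 0.142, 0.132 and 0.367 CPM in starved libraries A6, C6 and E6, against 5.22, 4.57 and 1.62 CPM in fed libraries B1, D1 and E1. It was 17.2-fold lower in starved liver (log2 fold change -4.10 ± 0.66 SE; edgeR adjusted p = 0.0148). The lowest fed library, E1, was still above every starved library. The second KIF23 gene, 10019540, had 0.354, 0.264 and 0.220 CPM in starved libraries, against 4.99, 2.60 and 1.001 CPM in the fed libraries in the same order. It fell as well, by 3.29 on the log2 scale (SE 0.68; edgeR adjusted p = 0.0322), and its groups did not overlap. The call ended in both fits on FPKM.

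KIF20A gene 10012304 had 0.283, 0.461 and 0.0734 CPM in starved libraries, against 4.52, 7.93 and 2.39 CPM in fed libraries. The starved libraries held 4, 7 and 1 counts of it and the fed libraries 39, 125 and 31 counts. This was 17.4-fold lower in starved liver (log2 fold change -4.12 ± 0.68 SE; edgeR adjusted p = 0.0159), with no overlap, and the call ended in the fit on log2(FPKM + 1). Another KIF20A gene, 10022377, had 1 count in all, in D1. Kif20b, gene 10002958, a relative that also works in cytokinesis, had 0.425, 0.264 and 0.441 CPM in starved libraries, against 2.09, 2.66 and 1.08 CPM in fed libraries. Its groups did not overlap and it was 5.09-fold lower (log2 fold change -2.35 ± 0.54 SE; edgeR adjusted p = 0.0454), although the call ended without the filter on low counts and in both fits on FPKM.

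kif4 and kif22 are chromokinesins, which bind chromosome arms and push them towards the spindle equator. kif4 (10020662) had 0.850, 1.05 and 0.220 CPM in starved libraries, against 10.9, 8.56 and 2.69 CPM in fed libraries. It was 10.2-fold lower (log2 fold change -3.35 ± 0.67 SE; edgeR adjusted p = 0.0288), a call that ended in both fits on FPKM. kif22 (10015019) had 0.354, 0.461 and 0.881 CPM in starved libraries, against 6.50, 5.33 and 2.69 CPM in fed libraries. It was 8.44-fold lower (log2 fold change -3.08 ± 0.52 SE; edgeR adjusted p = 0.0173). Neither gene had a starved library above a fed one.

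The gene described as carboxy-terminal kinesin 2 (10004497) belongs to the minus-end motors that focus spindle poles. It had 0.567, 0.0659 and 0.220 CPM in starved libraries, against 6.38, 3.87 and 1.62 CPM in fed libraries. Its groups did not overlap and it was 13.5-fold lower (log2 fold change -3.75 ± 0.76 SE; edgeR adjusted p = 0.0305). Per coding length it was the most abundant mitotic kinesin of the fed libraries, at 3.39 ± 1.58 FPKM, against 0.265 ± 0.248 FPKM in starved liver (SD, n = 3 per group). Its share of the summed FPKM of the 13 mitotic kinesins was 9.17%, 1.46% and 6.22% in A6, C6 and E6, against 21.95%, 17.7% and 17.4% in B1, D1 and E1.

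The other mitotic kinesins did not pass in the test with all 6 libraries. kif11 (10013187), the motor that pushes the spindle poles apart, had 0.992, 1.65 and 1.62 CPM in starved libraries, against 8.58, 5.83 and 2.39 CPM in fed libraries. The groups did not overlap, but it did not pass (log2 fold change -1.96 ± 0.51 SE; edgeR adjusted p = 0.0656), and it passed without E1 (adjusted p = 0.0315) and with DESeq2 (adjusted p = 0.00978). kif2c (10013341), a depolymerase that corrects attachments at kinetochores, had 3.26, 1.25 and 1.54 CPM in starved libraries, against 8.58, 4.44 and 2.001 CPM in fed libraries. A6 lay above E1, and the difference did not pass (edgeR adjusted p = 0.246).

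KIF18A (10019025), which damps chromosome movement at the spindle equator, was too low for the main test, with 1, 3 and 0 counts in starved libraries, against 28, 35 and 4 counts in fed libraries. Fitted without the filter, it was 18.6-fold lower (log2 fold change -4.21 ± 1.04 SE; edgeR adjusted p = 0.048). KIF14 (10009868), a cytokinesis motor, had 1, 0 and 1 counts in starved libraries, against 3, 9 and 9 counts in fed libraries. Fitted without the filter it did not pass (log2 fold change -3.28 ± 1.09 SE; edgeR adjusted p = 0.134). By counts the fed level was 12.1 times the starved one, with a 95% exact interval of 2.95 to 106 that covers counting error only, not the spread between libraries.

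kif15-b (10023022) was the exception in its class. In mammals KIF15 supports kif11 in keeping spindle poles apart, and the deposited annotation of the rockfish gene names mitotic spindle assembly. It had 9.92, 8.17 and 4.11 CPM in starved libraries, against 5.80, 4.38 and 5.08 CPM in fed libraries. Both A6 and C6 were above every fed library, while E6 was below all of them, and the difference did not pass (log2 fold change 0.55 ± 0.37 SE; edgeR adjusted p = 0.424). With 1.89 ± 0.845 FPKM it was the most abundant of the 13 mitotic kinesins in starved liver, against 1.23 ± 0.147 FPKM in fed liver (SD, n = 3 per group).

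**Figure D2:**
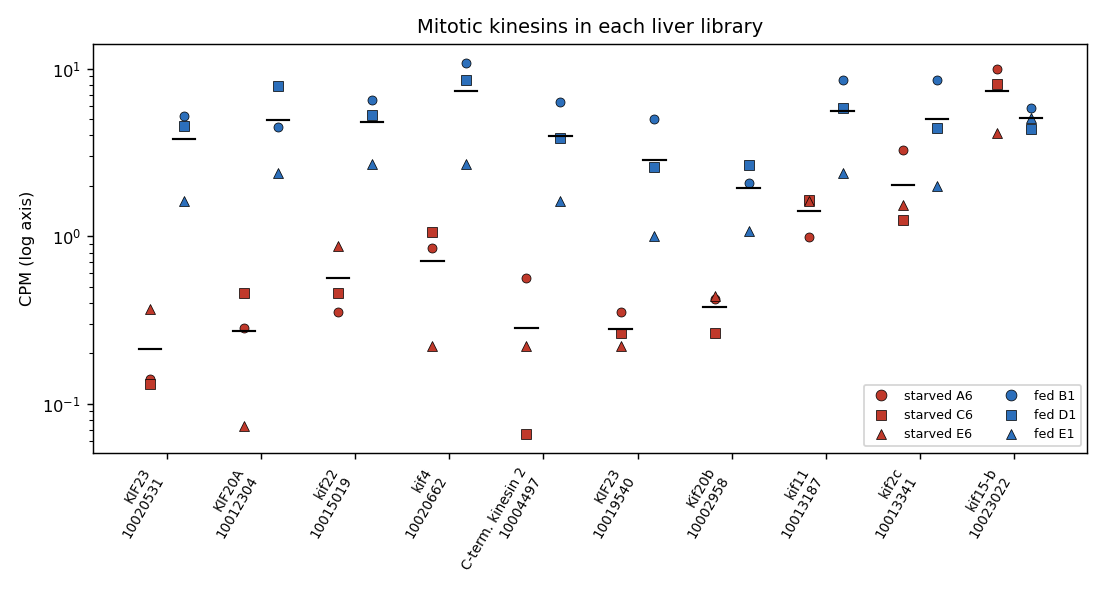
CPM (y axis, log scale) of the 10 tested mitotic kinesins in each starved (red) and fed (blue) library, ordered along the x axis by adjusted p; marker shapes give the library and black lines the group means. For the 8 genes from KIF23 to kif11 every starved library lies below every fed one, against 15.5% of all tested genes. Of these, 5 reached the filter level in every fed and in no starved library. Entry to the test by itself set their groups apart, so the 15.5% is no measure for them. E1 is the lowest fed library for each of the 7 that passed.

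The fed libraries differed in level. E1 was the lowest fed library for each of the 7 mitotic kinesins that fell, whereas B1 was the highest for 5 of them and D1 for 2. Among starved libraries the lowest place was shared: A6 was lowest for 1 of the 7, and C6 and E6 for 3 each. Summed over all 13 mitotic kinesins, the level was 5.92, 4.43 and 2.99 FPKM in A6, C6 and E6, against 19.7, 24.2 and 8.995 FPKM in B1, D1 and E1. The groups did not overlap, and the mean was 4.45 ± 1.46 FPKM in starved and 17.6 ± 7.79 FPKM in fed liver (SD, n = 3 per group).

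Most of the 10 calls ended when certain single libraries were left out. Leaving out C6 or A6 ended all 10 calls, leaving out E6 kept only KIF23 10020531, and leaving out D1 kept only the beta-1 tubulin. In each of these 4 fits, all 10 genes were still lower in starved liver, and 17 to 20 members were lower at an unadjusted p under 0.05. The share of all genes at that level in these fits is not given here, so the member counts cannot be set against it. Without B1, all 10 stayed called and 13 members in all were lower, against 6.50% of all genes; without E1, 13 members were lower, 9 of them among the 10, against 2.25% of all genes.

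Among tubulins the level lay in a few genes. Of the 19 alpha- and beta-tubulin genes, 7 averaged under 1 FPKM over the 6 libraries, and the 4 most abundant gave 68.2% to 86.2% of the summed FPKM of each library. Because tubulin copies are near-identical and the counting settings are not given in the sources used here, reads may have been split between copies, so values of single copies are uncertain.

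The most abundant was a gene described as the tubulin beta-1 chain (10021131). It had 47.3, 30.6 and 57.6 CPM in starved libraries, against 408, 138 and 212 CPM in fed libraries. Each fed library exceeded the highest starved library, and the gene was 5.58-fold lower in starved liver (log2 fold change -2.48 ± 0.46 SE; edgeR adjusted p = 0.0238). Per coding length it had 50.02 ± 11.9 FPKM in starved and 255 ± 74.9 FPKM in fed liver (SD, n = 3 per group). It supplied 68.0%, 57.7% and 73.8% of all beta-tubulin FPKM in A6, C6 and E6, against 84.6%, 77.2% and 83.9% in B1, D1 and E1. Of the 10 called members, it was the only one to pass without D1.

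TUBB4B genes encode a beta-tubulin that in mammals is found in most tissues. TUBB4B 10012912 had 22.3, 19.4 and 21.5 CPM in starved libraries, against 57.2, 34.9 and 43.9 CPM in fed libraries. The groups did not overlap and it was 2.15-fold lower (log2 fold change -1.10 ± 0.26 SE; edgeR adjusted p = 0.0492). This call was the least stable of the 10: it held in 5 of 14 alternatives and ended with RLE scaling (adjusted p = 0.0513), without the filter, in both fits on FPKM and without any 1 library other than B1. TUBB4B 10021390 had 2.62, 3.49 and 1.91 CPM in starved libraries, against 29.0, 10.6 and 3.08 CPM in fed libraries. C6 lay above E1, and it did not pass (log2 fold change -2.39 ± 0.72 SE; edgeR adjusted p = 0.0975), although it passed without E1 (adjusted p = 0.0298). The groups of Tubb4b 10013748 (log2 fold change -1.06; edgeR adjusted p = 0.167) and of the beta-6 gene 10010010 (log2 fold change -0.88; edgeR adjusted p = 0.266) overlapped.

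Among alpha-tubulins 3 genes were abundant. The gene 10010786, described only as a tubulin alpha chain, had 23.3, 27.6 and 26.0 CPM in starved libraries, against 138, 64.4 and 51.5 CPM in fed libraries. It was 3.29-fold lower with no overlap (log2 fold change -1.72 ± 0.39 SE; edgeR adjusted p = 0.0439). tuba (10019994) had 16.9, 18.8 and 17.6 CPM in starved libraries, against 108, 42.8 and 33.8 CPM in fed libraries. The starved libraries lay close together and below all fed ones, yet it did not pass (log2 fold change -1.79 ± 0.44 SE; edgeR adjusted p = 0.0558); it passed without B1 (adjusted p = 0.00986), without E1 (adjusted p = 0.0403) and without the filter (adjusted p = 0.034).

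The third, 10004355, had 38.5, 35.7 and 29.7 CPM in starved libraries, against 206, 77.5 and 41.3 CPM in fed libraries. E1 was just above A6, and the gene did not pass (edgeR adjusted p = 0.12). The alpha-tubulins 10005647, 10019993 and TUBA1D did not pass, at edgeR adjusted p = 0.148, 0.201 and 0.395 and log2 fold changes between -1.37 and -0.87. Tuba1a 10005652 was below the filter, with 0, 2 and 0 counts in starved libraries, against 2, 19 and 30 counts in fed libraries. From these counts its fed level was 29.3 times the starved one, with exact 95% limits of 7.70 and 248 for counting error alone. Fitted without the filter it did not pass (log2 fold change -4.53 ± 1.17 SE; edgeR adjusted p = 0.0561).

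**Figure D3:**
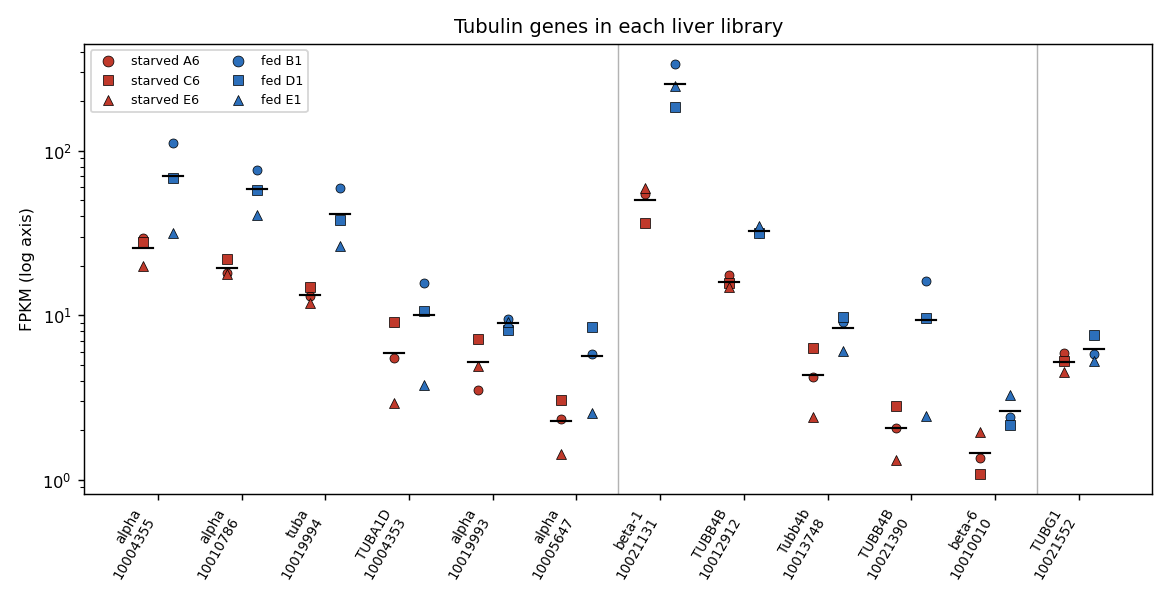
FPKM (y axis, log scale) of the 12 tested tubulin genes in each starved (red) and fed (blue) library, with alpha-tubulins left, beta-tubulins centre and gamma-tubulin right; marker shapes give the library and black lines the group means. The beta-1 gene 10021131 has the highest level in both groups, and the groups of TUBG1 overlap.

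Summed over genes, alpha-tubulin had 71.9, 85.4 and 60.7 FPKM in starved libraries A6, C6 and E6, against 278, 195 and 122 FPKM in fed libraries B1, D1 and E1. Beta-tubulin had 80.5, 63.2 and 79.8 FPKM in starved libraries, against 394, 239 and 294 FPKM in fed libraries. Both sums were lower in every starved library than in any fed one. The ratio of alpha to beta FPKM was 0.894, 1.35 and 0.761 in starved libraries, against 0.704, 0.815 and 0.416 in fed libraries, so its groups overlapped. All 12 tested tubulins, gamma-tubulin included, had a log2 fold change below 0 under each of the 14 alternatives, and their median was -1.24, beside -0.03 over all 13338 tested genes.

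No nucleation gene passed the test, and none had an unadjusted p under 0.05. TUBG1 (10021552), the gamma-tubulin that starts new microtubules, had 7.58, 6.59 and 6.61 CPM in starved libraries, against 10.7, 8.43 and 6.77 CPM in fed libraries (log2 fold change -0.31 ± 0.27 SE; edgeR adjusted p = 0.545). E1 lay within the starved range, and the difference was smaller than the spread among fed libraries. The 6 gamma-tubulin complex components, which hold gamma-tubulin in its ring, had a median log2 fold change of -0.02 and a range of -0.59 to 0.91. Of these, TUBGCP6 (10017067) was the furthest from 0, with 7.22, 5.60 and 6.02 CPM in starved libraries, against 5.10, 3.49 and 1.54 CPM in fed libraries. Its groups did not overlap, but it did not pass (edgeR adjusted p = 0.261).

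Transport kinesins had a median log2 fold change of 0.03 over the 11 tested genes, and 0 of them passed with all 6 libraries in edgeR, where 1 was lower at an unadjusted p under 0.05. Kif5b (10013738), the heavy chain of conventional kinesin, was the most abundant per length. It had 16.3, 13.6 and 12.5 CPM in starved libraries, against 17.5, 30.9 and 42.7 CPM in fed libraries. All starved libraries were below all fed ones, with B1 close to the starved group (log2 fold change -1.11 ± 0.34 SE; edgeR adjusted p = 0.103). Without B1 it passed with a log2 fold change of -1.38 (edgeR adjusted p = 0.0084), and it also passed with DESeq2 on all 6 libraries (adjusted p = 0.0449). On FPKM, which divides by the unscaled library total, B1 had 4.37 FPKM, against 3.89 to 5.74 FPKM in the starved libraries.

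KIF3A (10009042) and KIF3B (10017662) form the heterotrimeric motor of cilia with KIFAP3. KIF3A had 4.89, 5.80 and 5.80 CPM in starved libraries, against 4.64, 6.28 and 5.77 CPM in fed libraries, a log2 fold change of -0.02 ± 0.28 SE. KIF3B had 6.66, 6.19 and 5.21 CPM in starved libraries, against 6.61, 10.7 and 8.54 CPM in fed libraries. Neither passed (edgeR adjusted p = 0.972 and 0.326), and the groups of both overlapped.

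KIF13B genes, which in mammals carry phosphoinositide- and receptor-bearing vesicles, were next in abundance. KIF13B 10018503 had 23.9, 18.8 and 18.8 CPM in starved libraries, against 7.65, 40.6 and 29.1 CPM in fed libraries. B1 was the lowest of the 6 libraries and D1 the highest (edgeR adjusted p = 0.733), and the direction turned without D1. KIF13B 10007824 had log2 fold change -0.20 ± 0.33 SE (edgeR adjusted p = 0.755). KIF1A 10013326, a carrier of synaptic and dense-core vesicles in neurons, had 2.20, 2.57 and 3.01 CPM in starved libraries, against 0.580, 2.28 and 1.001 CPM in fed libraries (edgeR adjusted p = 0.316). Here C6 and E6 lay above all fed libraries, and A6 lay within the fed range.

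Other kinesins were led by KIF21A, whose mammalian form holds back microtubule growth at the cell cortex. KIF21A 10012159 had 52.3, 60.8 and 51.1 CPM in starved libraries, against 11.6, 38.3 and 32.9 CPM in fed libraries. Every starved library was above every fed one, with B1 far below D1 and E1, and it did not pass (log2 fold change 0.98 ± 0.41 SE; edgeR adjusted p = 0.209). The other 2 KIF21A copies had log2 fold changes of 0.05 (10016938) and 0.00 (10009620), and their signs turned when single libraries were left out.

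Kif26a 10022994, of a family whose mouse members signal without moving along microtubules, had 5.95, 6.72 and 5.21 CPM in starved libraries, against 3.60, 3.93 and 3.23 CPM in fed libraries. Its groups did not overlap and it had the smallest p of its class, but it did not pass (log2 fold change 0.73 ± 0.28 SE; edgeR adjusted p = 0.175). KIF26B 10020301 had log2 fold change 0.52 ± 0.58 SE (edgeR adjusted p = 0.635), and kif7 and KIF2A, a hedgehog regulator at the cilium and a microtubule depolymerase, had -0.19 and -0.26 (edgeR adjusted p = 0.734 and 0.664). The 16 transport and other kinesins below the filter included the ciliary and axonal genes KIF17, KIF6, KIF9, KIF24, KIF27 and both KIF5A copies.

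**Figure D4:**
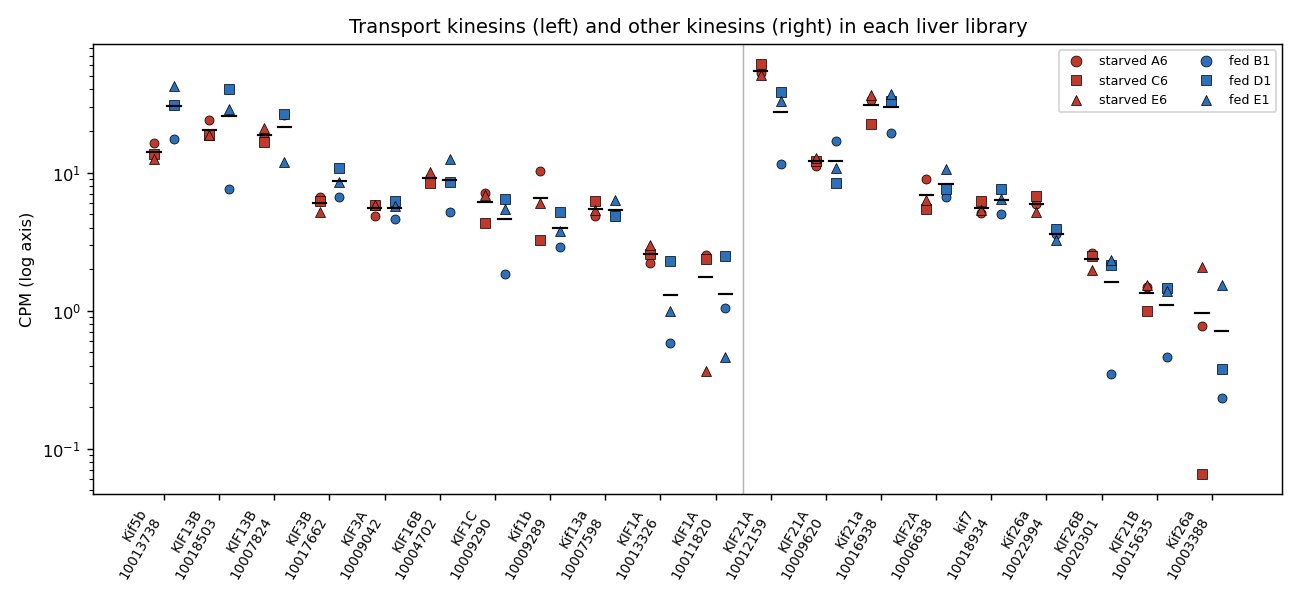
CPM (y axis, log scale) of the 20 tested transport kinesins (left of the grey line) and other kinesins (right) in each starved (red) and fed (blue) library, ordered by mean FPKM within each class; marker shapes give the library and black lines the group means. Groups do not overlap for Kif5b, KIF21A 10012159 and Kif26a 10022994, and B1 is the lowest library for 11 of the 20.

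For the 20 transport and other kinesins together the median log2 fold change was 0.05, with 7 below and 13 above 0; without B1, and likewise without E6, 11 were below 0. By groups that did not overlap, 1 of the 20 was lower in starved liver and 2 were higher, against 15.5% and 15.6% of all tested genes. Summed FPKM of the 17 transport kinesins was 29.1, 25.3 and 23.7 in starved libraries, against 15.7, 46.2 and 38.6 in fed libraries. Here B1 lay below and D1 and E1 above the whole starved group.

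Most spindle partners of the mitotic kinesins fell. This list and those below were chosen with earlier results of these data known. Of 27 tested genes that act with mitotic kinesins at the spindle and midzone, 23 fell, 0 rose and 4 did not pass, where 2.98% of all tested genes were called lower. Of these 23, all reached the filter level of 0.755 CPM in every fed library and 18 reached it in no starved library, so they too entered the test through the group in which they were high. With no filter on low counts, all 33 genes of the list were fitted and 24 were called lower, against 2.11% of all genes; their median log2 fold change was -3.56, beside -0.02 over all genes. PRC1, which crosslinks midzone microtubules and recruits KIF4, fell in both copies; gene 10019589 had 0.0708, 0.0659 and 0.147 CPM in starved libraries, against 6.61, 6.09 and 2.54 CPM in fed libraries (log2 fold change -5.62 ± 0.62 SE; edgeR adjusted p = 0.00467). tpx2, an activator of Aurora A on spindle microtubules, had a log2 fold change of -3.84 ± 0.45 SE, and CKAP2, a microtubule stabiliser, -5.59 ± 0.69 SE (edgeR adjusted p = 0.00545 and 0.00643). CENPE, a kinetochore kinesin outside the naming rule, fell in both of its copies (edgeR adjusted p = 0.017 for CENPE 10019493 at a log2 fold change of -4.64, and 0.0387 for Cenpe 10019494). The second had 3 counts over the starved and 86 over the fed libraries, a fed level 32.9 times the starved one by counts, within an exact 95% interval of 10.9 to 163 for counting error.

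Of 21 tested proliferation markers, 11 fell, 0 rose and 10 did not pass in edgeR, where 2.98% of all tested genes were called lower. DESeq2, over all 27 genes of the list, called 20 lower and 0 higher, against 5.93% of the genes it tested called lower. The 11 reached the filter level in every fed library, and 8 of them in no starved library. With no filter, 13 of all 27 genes of the list were called lower, against 2.11% of all genes. Their median log2 fold change over the 27 was -3.20, beside -0.02 over all genes. The cyclin that starts mitosis, ccnb1, and TOP2A, a topoisomerase of dividing cells, fell by 4.93 and 3.93 on the log2 scale (edgeR adjusted p = 0.00643 for both). MKI67 had the next smallest p, with a log2 fold change of -3.01 (edgeR adjusted p = 0.00648). rrm2 10000098, a subunit of ribonucleotide reductase, also fell (edgeR adjusted p = 0.00687), with 1 count over the starved and 94 over the fed libraries. By counts its fed level was 108 times the starved one, and the exact 95% interval for counting error ran between 18.9 and 4306. The markers that did not pass included pcna, at -0.96 on the log2 scale (edgeR adjusted p = 0.248), and every mcm gene of the list. Among the mcm genes, mcm2, MCM3, mcm4, mcm5 and Mcm6 lay between -3.25 and -0.10. By contrast, mcm7 was higher in starved liver, at 0.51 (edgeR adjusted p = 0.695), as was MYBL2 10013565, at 0.57 (edgeR adjusted p = 0.361). Rrm1 10010846 and Rrm2b, which was matched to the listed RRM2 by its ending, did not pass either, at -1.85 and -1.18. The other copy, rrm1 10020761, fell by a log2 fold change of -4.01 ± 0.90 SE (edgeR adjusted p = 0.0428). The other MYBL2 copy, 10015445, was below the filter, with 0.0708, 0.0659 and 0 CPM in starved libraries, against 1.51, 0.888 and 0.154 CPM in fed libraries. Summed over the list, the level was 38.2 to 47.2 FPKM in starved and 81.1 to 185 FPKM in fed libraries, of which E1 was again the lowest.

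Partners of the transport motors (kinesin light chains, KIFAP3, dynein, dynactin and cargo adaptors) gave 0 called genes of 29 tested in edgeR. The same test called 2.98% of all tested genes lower and 2.18% higher. Their median log2 fold change was -0.20. Summed over the list, the level was 364, 360 and 292 FPKM in A6, C6 and E6, against 705, 499 and 487 FPKM in B1, D1 and E1. This sum was thus lower in every starved library than in any fed one, although no single gene passed. At an unadjusted p under 0.05, 4 were lower, against 1644 of all 13338 tested genes. DESeq2, over all 35 genes of the list, called 2 lower, against 5.93% of the genes it tested. Of 29 tested genes of tubulin folding, nucleation and modification, 1 fell and 2 rose in edgeR, against 2.98% and 2.18% of all tested genes. At an unadjusted p under 0.05, 3 were lower and 9 higher, against 1644 and 1280 of all 13338 tested genes. DESeq2, over all 38 genes of the list, called 2 lower and 5 higher. Of the 15132 genes it tested, it called 1534 in either direction, 898 of them (5.93% of those tested) lower. STMN4 10013028, a stathmin that sequesters tubulin pairs, had 1.06, 1.45 and 1.03 CPM in starved libraries, against 22.04, 6.59 and 4.54 CPM in fed libraries (log2 fold change -3.20 ± 0.63 SE; edgeR adjusted p = 0.0273). CCT7 and TCP1, subunits of the chaperonin that folds new tubulin and actin, rose by log2 fold changes of 1.68 ± 0.31 and 1.43 ± 0.27 SE (edgeR adjusted p = 0.0237 and 0.0249). CCT7 had 124, 170 and 233 CPM in starved libraries, against 62.5, 52.1 and 49.5 CPM in fed libraries. Set apart from the rest of the list after their values were seen, the 8 chaperonin subunits had log2 fold changes from 0.65 to 1.68. Every starved library was above every fed one for all 8, against 15.6% of all tested genes. Of the 8, 2 were past the threshold, against 2.18% of all tested genes called higher.

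**Figure D5:**
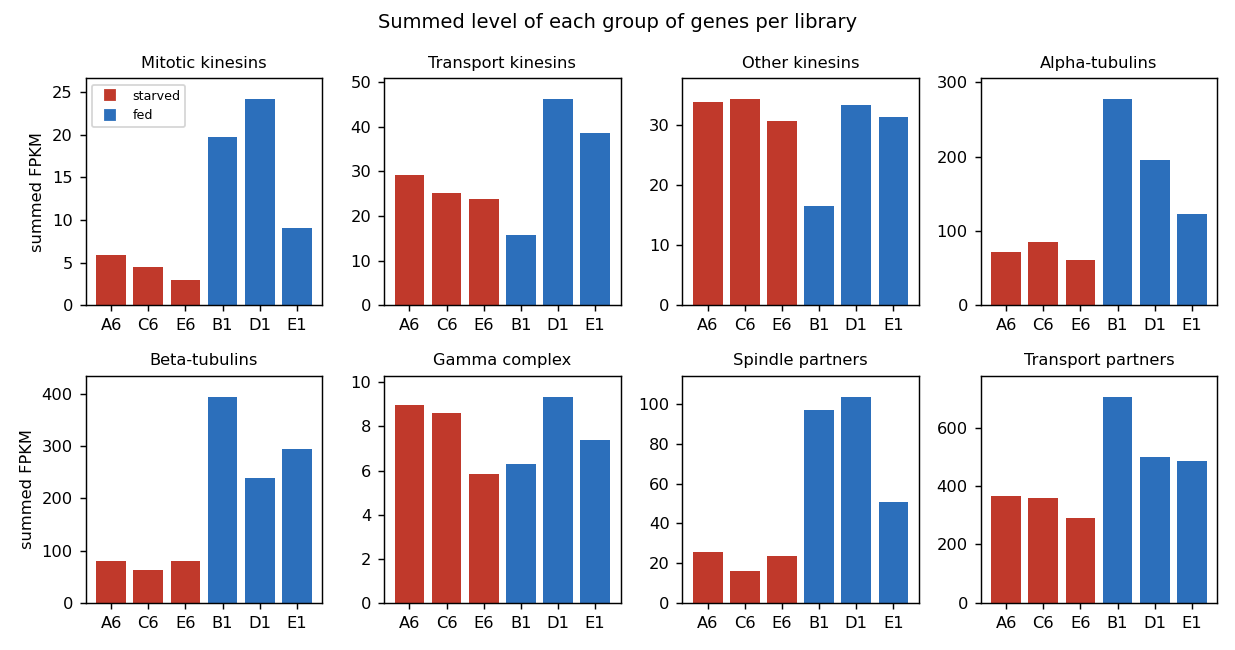
Summed FPKM (y axis, from 0) of 6 classes of kinesin and tubulin genes and of 2 lists of partners in starved libraries A6, C6 and E6 (red) and fed libraries B1, D1 and E1 (blue). Mitotic kinesins, alpha- and beta-tubulins, spindle partners and transport partners are lower in every starved library than in any fed one. By contrast, the transport kinesins of B1 lie below all starved libraries.

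Markers of other cells were measured beside these results. Of 10 tested endothelial and stromal markers, 3 collagen genes fell and 7 did not pass, where 2.98% of all tested genes were called lower. The summed level of the list's 13 genes was 52.7 to 69.0 FPKM in starved and 85.5 to 133 FPKM in fed libraries. At an unadjusted p under 0.05, 3 genes of the list were lower and 2 higher, against 1644 and 1280 of all 13338 tested genes. These 2 were TIE1, an endothelial receptor, at a log2 fold change of 0.76 and pdgfrb, a receptor of pericytes and stroma, at 1.37 (edgeR adjusted p = 0.159 for TIE1 and 0.148 for pdgfrb). The other 5 endothelial genes (kdr, both PECAM1 and both CDH5 copies) lay between 0.00 and 0.76. The bile duct list of 15 genes, mostly keratins, summed to 793 to 1244 FPKM in starved and 1604 to 1643 FPKM in fed libraries. Of its 6 tested genes, 0 were called by edgeR or DESeq2, and they lay on both sides of 0. The log2 fold changes of krt8 10003753, krt18 10017562 and KRT19 10013794 lay between -1.14 and -0.66. Those of krt18 10003752 and both sox9-b copies lay between 0.15 and 0.50. At an unadjusted p under 0.05, 2 were lower, against 1644 of all 13338 tested genes. Both cftr copies were at or near 0. The part of these cells in the tubulin and kinesin values was not tested.

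Erythroid markers summed to 465 to 2048 FPKM in starved and 1279 to 2381 FPKM in fed libraries, macrophage and granulocyte markers to 49.3 to 91.3 FPKM in starved and 44.8 to 74.8 FPKM in fed libraries, and lymphocyte markers to 7.99 to 13.1 FPKM in starved and 1.72 to 8.80 FPKM in fed libraries. Pancreas markers summed to 11.3 to 101 FPKM in starved and 6.45 to 34.8 FPKM in fed libraries, neuron markers to 1.42 to 1.94 FPKM in starved and 0.992 to 2.76 FPKM in fed libraries, and ciliated or germ cell markers to 1.49 to 1.87 FPKM in starved and 0.813 to 1.99 FPKM in fed libraries. In these 6 lists the groups overlapped and edgeR called 0 genes. DESeq2 called 1 erythroid gene lower, against 5.93% of the genes it tested. At an unadjusted p under 0.05, 1 erythroid gene was lower and 1 neuron gene higher, against 1644 and 1280 of all 13338 tested genes.

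The authors' deposited table, whose test is not given, marked 17 of the 60 members it holds values for as lower in starved liver and 0 as higher. Of all its 16166 genes, it marked 808 as lower and 551 as higher, which is 8.41% in either direction. All of its marked genes had a q-value under 0.05 and a fold past 2 in either direction. In the authors' deposited table, the 17 held 9 mitotic kinesins, 7 tubulins and Kif5b. KIF20A 10012304 had the smallest q-value there, 1.91e-06, with a fold of 0.0559, followed by the beta-1 tubulin 10021131 with a fold of 0.18, in the authors' deposited table. The same 17 members were called lower by the DESeq2 fit above, where KIF20A 10012304 had a DESeq2 adjusted p of 1.86e-06. Both rest on the same libraries, so the authors' marks are no separate evidence.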

How the data were processed

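The authors' deposited count table holds raw whole-number counts. The submitters' processing notes list Trimmomatic, HISAT2, Cufflinks and HTSeq without versions or roles. The genome build, and whether counting used the strand, are not given in the sources used here. In the authors' deposited FPKM table each value is the count over the library total and a fixed length per gene; 100% of the recovered lengths were multiples of 3 and are called coding lengths here. Fold changes (a ratio, starved over fed) and q-values were also deposited; the direction of the ratio matched that of the FPKM means for 96.8% of genes. Libraries were poly(A)-selected, strand-marked and paired-end, per the labels' protocols.

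Counts were tested with edgeR 4.0.16 (R 4.3.3): filterByExpr, TMM scaling, robust quasi-likelihood F test, Benjamini-Hochberg adjustment over all 13338 tested genes, calls under 0.05. The standard error is the log2 fold change over the square root of F. CPM values use TMM-scaled library sizes, which were 0.742 times the total for B1 and 0.925 to 1.21 times for the others. Only 1 letter (E) recurs in the title codes of both groups, so no pairing was used. Replicate libraries differed beyond sampling noise, with chi-square values of 33.6 to 149 per degree of freedom. The test was tried on simulated counts first.

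Named genes are all called members, all mitotic kinesins, and the 3 most abundant members and the 3 with the smallest p of each other role. Up to 3 called genes with the smallest p of each partner list were named too. KIF3A, kif7, KIF2A, CENPE, the copies and genes below the filter and the cell markers were named after their values were seen. So were rrm2, rrm1 10020761 and the proliferation markers that did not pass. The members and lists were chosen with earlier results of these data known. Symbols of the lists were matched with copy endings allowed. This also took in genes that the lists do not name, such as Rrm2b, CDC20B, Cpd (hepatocyte list) and INSC (pancreas list). Alternatives were DESeq2 1.42.0, upper-quartile and RLE scaling, no filter, at least 10 counts in every library of 1 group, limma 3.58.1 on log2(FPKM + 1) and log2(FPKM + 0.1), which understate the change of low genes, non-robust dispersion and each library left out. Intervals are 95% exact binomial ones on counts. No reference genome or sequence was used.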

Additional observations from a re-analysis of the deposited data

How the results depend on the processing

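With all 6 libraries, 8 alternatives were run. DESeq2 called 17 members lower, 1 of them a transport kinesin (Kif5b) and 7 tubulins, and 1534 genes in all. On log2(FPKM + 1), 6 members were called lower, 3 of them mitotic kinesins. On log2(FPKM + 0.1), 6 of the 10 called members and 1 other member were called lower, among them 4 mitotic kinesins. The share of all genes called in these 2 fits is not given here, so the member counts cannot be set against it. A pseudocount shrinks the change of low genes by construction. Upper-quartile and RLE scaling, non-robust dispersion and both filters moved no count by over 1.5 times. The median log2 fold change of all genes stayed between -0.04 and 0.06. Over the 6 fits that leave out 1 library, members called lower ranged from 0 to 13 and members called higher from 0 to 0. Mitotic kinesins called lower ranged from 0 to 9, transport or other kinesins from 0 to 1 and tubulins from 0 to 5. The 1 was the transport kinesin Kif5b, called without B1. All genes called ranged from 102 to 1704 in these 6 fits. Each such fit has fewer samples. In single genes that did not pass, signs turned over these 6 fits, with log2 fold changes of -0.18 to 0.24 for Kif21a 10016938, -0.19 to 0.32 for KIF21A 10009620, -0.77 to 0.16 for KIF13B 10018503 and -0.31 to 0.029 for tubgcp3. Of the 48 tested members, 36 kept their sign in each of the 14 alternatives that fitted them, and KIF3A ranged between -0.14 and 0.08. Over the 14 alternatives, the beta-1 tubulin and KIF23 10020531 stayed called in 11 each, carboxy-terminal kinesin 2, kif22 and the alpha-tubulin 10010786 in 10, KIF20A in 9, kif4 and KIF23 10019540 in 8, Kif20b in 7 and TUBB4B 10012912 in 5. No paired analysis was possible because the title codes give no shared numbering. Mitotic kinesins had 1 to 16 counts per starved library among the 7 called genes, which limits how finely their starved levels can be ranked.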
